A study of Homo sapiens with 21 samples.

Results

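The interferon-stimulated effector genes described here are 45 listed genes whose products carry out the antiviral and regulatory actions of interferon, among them the IFIT, OAS, MX, IFITM and SAMD9 families and the proteins that attach ISG15. Members were the rows of the count table whose Ensembl identifier maps to a listed symbol. All 45 were found, with 1 row each, among the 54042 genes of the table. Of them, 42 passed the filter on low counts and were tested, while MX1, OAS3 and HERC6 stayed below it. Among the 42, 18 passed only through ironomycin libraries, since fewer than 3 of the 9 DMSO libraries reached the filter's level of 2.07 CPM (counts scaled to a common library size) for them, so a rise was built into their presence among the tested genes. The remaining 24 reached that level in at least 3 DMSO libraries.

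The study counted 3′ transcript ends in MV4-11, a line from a human leukaemia of mixed B-cell and myelomonocytic type, in 7 groups of 3 libraries. Wild type cells were given DMSO, the solvent, or ironomycin, a small molecule also called AM5, for 6 h or for 24 h. Cells with a knockout of HK2 (hexokinase 2, which phosphorylates glucose) and cells with a knockout of PGP (phosphoglycolate phosphatase) were given DMSO or ironomycin for 24 h, and the knockouts were not sampled at 6 h. All groups share the MV4-11 background and the same serum-containing medium. The sources used here do not give the edited sites, whether a knockout is a clone or a pool, the ironomycin dose or how long the DMSO cells were held, so time in culture and the drug cannot be told apart. They also do not say that replicates were separate cultures, and p-values then measure only the spread between these libraries.

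Type I interferons bind a receptor at the cell surface whose kinases JAK1 and TYK2 phosphorylate transcription factors, STAT2 among them. Together with IRF9 these form a complex that enters the nucleus and binds the interferon-stimulated response element upstream of the effector genes, whereas interferon gamma acts mainly at the gamma-activated site. Some effector genes, the IFIT genes among them, can also be switched on directly by interferon regulatory factors without interferon being secreted.

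Promoter sequence was available for 37 of the 45 members, as 51 windows of 300 bases (250 before to 50 after a transcript start; RefSeq, GRCh38.p14), and IFIT2, MX2, OAS2, OASL, SIGLEC1, USP18, IFITM2 and TRIM22 had no window. The core of the response element was searched on both strands as GAAA, any 2 bases and GAAA, with overlapping matches counted, and the gamma-activated site as TTC, any 3 bases and GAA, whose fixed bases read the same on both strands. The response element core lay in 31 of the 51 windows (60.8%), against 3.57% of all 35116 windows of the table, and 17 windows (33.3%) held at least 2 matches, against 0.259% of all windows. By gene, 26 of the 37 members had a match and 15 had at least 2. The gamma-activated site lay in 13 member windows (25.5%), against 7.66% of all. Windows of neighbouring genes can overlap, as those of PARP9 and DTX3L do, so they are not independent, and a match is a description of letters, not a site shown to be bound.

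Stretches with 2 or more response element matches are shown for 8 members whose levels are described below, so that the spacing and order of the repeats can be read beside their values. Capitals mark the matches of the core on either strand, and the sequences run 5′ to 3′ on the strand of the gene.
IFIT3: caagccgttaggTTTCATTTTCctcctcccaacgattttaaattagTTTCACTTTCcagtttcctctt
IFIT1: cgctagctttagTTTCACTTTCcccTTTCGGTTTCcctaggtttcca
ISG15: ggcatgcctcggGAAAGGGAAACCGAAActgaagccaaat
HERC5: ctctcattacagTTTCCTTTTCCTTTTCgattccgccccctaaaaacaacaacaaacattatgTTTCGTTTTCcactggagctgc
IFI6: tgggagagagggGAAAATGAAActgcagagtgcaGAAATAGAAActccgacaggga
IFI27: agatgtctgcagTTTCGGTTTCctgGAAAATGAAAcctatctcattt
DDX60: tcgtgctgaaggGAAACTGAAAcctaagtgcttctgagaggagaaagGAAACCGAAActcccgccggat
IFITM3: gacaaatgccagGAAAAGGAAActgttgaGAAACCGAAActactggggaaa

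In GRCh38.p14 these stretches are chr10:89327829-89327896 (plus strand) for IFIT3, chr10:89392495-89392541 (plus) for IFIT1, chr1:1013372-1013411 (plus) for ISG15 and chr4:88456982-88457066 (plus) for HERC5. They are chr1:27672264-27672319 (minus strand) for IFI6, chr14:94110616-94110662 (plus) for IFI27, chr4:168318784-168318852 (minus) for DDX60 and chr11:320874-320924 (minus) for IFITM3. All lie upstream of the annotated start, between 168 bases before it for the first base of the IFIT3 stretch and 14 bases before it for the last base of the IFITM3 stretch. In ISG15 the 2 matches share a GAAA block, and in HERC5 a pair of matches overlaps in the same way with another match further downstream. In IFI27 the matches lie on opposite strands. No match was found in the windows of 11 members, namely OAS1, CMPK2, SAMHD1, UBE2L6, HERC6, SAMD9L, HELZ2, SP110, IFI35, XAF1 and KLHDC7B, which says only that these letters are not in those windows.

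Total counts were 3829274 to 6069264 per library (median 4823817), so 3 counts stood for 0.498 to 0.803 CPM, and values near that level rest on single reads. CPM values use library sizes adjusted by the trimmed mean of M-values (TMM). The line's markers FLT3, CD33, CD4, HOXA9 and MEIS1 were detected in every group, CD68 had 0 counts in all groups and CEBPA had 1 in all, and IGLL1, a B-lymphoid marker, stood at 35.4 CPM in wild type DMSO and 2.87 CPM at 24 h. Of 12 markers of other cell types the culture could hold, 4 to 9 were at 0 counts in a group, and their summed level, mainly from NKG7, was 9.4 to 13.8 CPM in wild type DMSO, 10.7 to 15.5 at 6 h and 30.7 to 35.3 at 24 h, so it moved with the 24 h results, and its part in them was not tested. In the HK2 knockout in DMSO, HK2 transcript was 20.0 to 24.8 CPM against 42.4 to 69.5 in wild type DMSO (log2 difference -1.27 ± 0.28, edgeR adjusted p = 0.121), and in the PGP knockout in DMSO, PGP transcript was 71.0 to 83.6 CPM against 86.8 to 95.5 (-0.26 ± 0.12, edgeR adjusted p = 0.879). Since a disrupted gene can still give 3′ reads, neither level tests whether the edit was made. Replicate 2 at 6 h stood apart over all tested genes: the SD of its deviations from the group mean was 0.450 on the log2 scale, against 0.221 to 0.320 for the other 20 libraries. For the effector genes themselves, replicate 1 at 24 h stood above replicates 2 and 3 in wild type and in the PGP knockout, as described below.

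**Figure D1:**
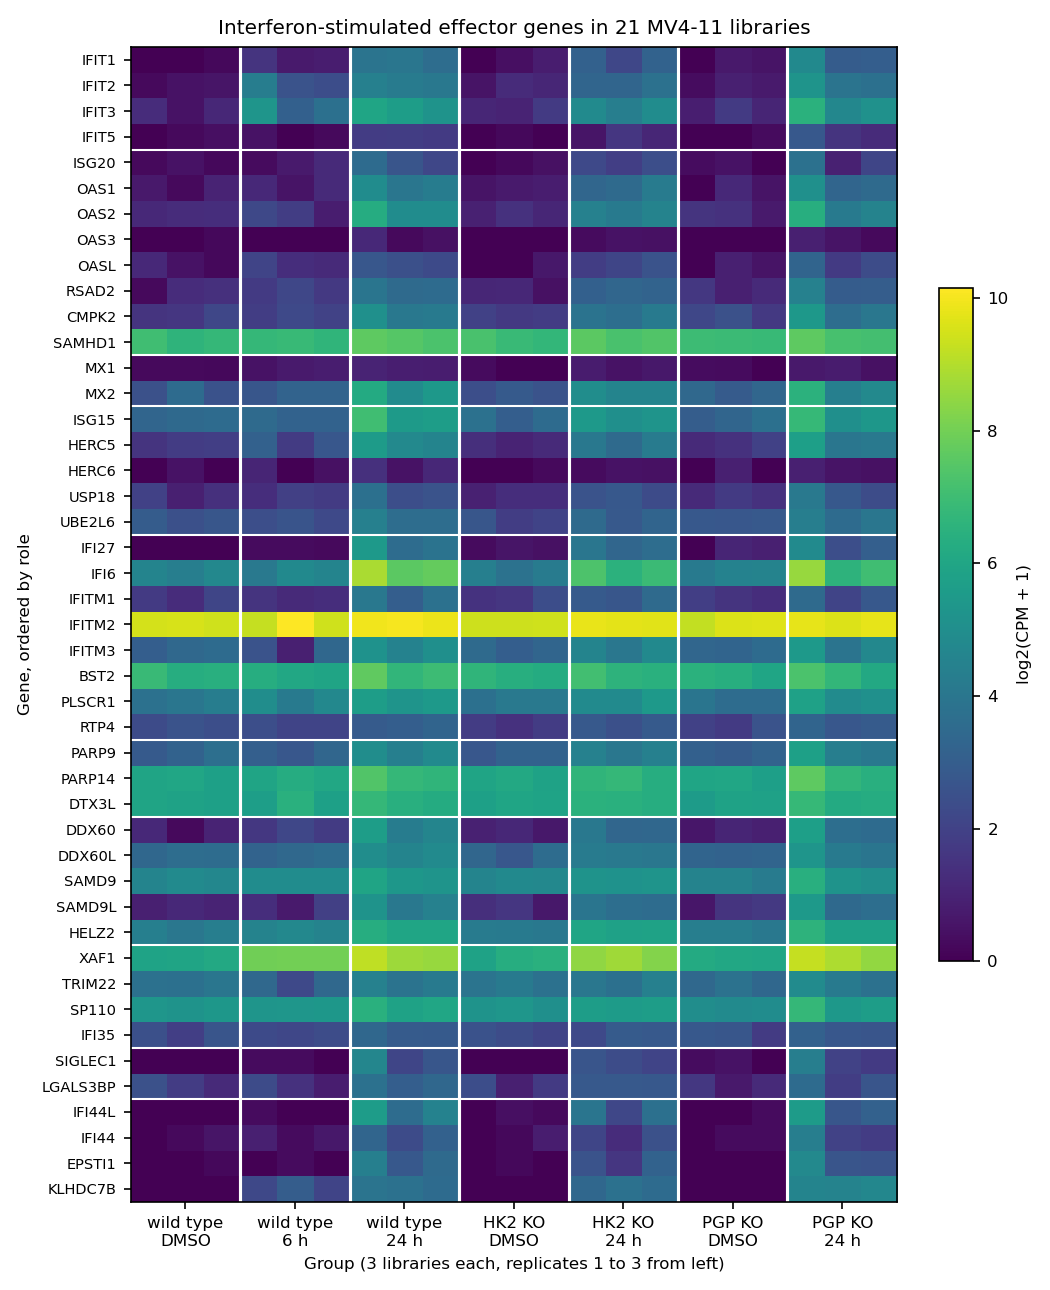
Level of each of the 45 members (rows, ordered by role, white lines between roles) in each of the 21 libraries (columns, 3 per group) as log2(CPM + 1), from dark (0) to yellow (about 10). The 24 h columns are brighter than the DMSO columns of the same genotype for nearly all rows, and few rows brighten at 6 h.

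After 24 h of ironomycin most of the effector genes rose in wild type cells. Of the 24 members that reached the filter level in at least 3 DMSO libraries, 21 were called higher and 0 lower at an adjusted p under 0.05 (edgeR quasi-likelihood test, Benjamini-Hochberg adjustment over 11610 genes), where 14.2% of the 10805 genes that met the same condition were called higher and 15.6% lower. The median log2 fold change of these 24 members was 1.42, against -0.003 over those genes. The members were listed with earlier results of these data known, and the 24 were set apart after the data were seen. Their share is therefore not independent of that choice. All 18 members that passed the filter only through ironomycin libraries were called higher as well, which their passing made likely, so the totals of 39 of 42 tested (15.3% of all tested genes were called higher and 14.6% lower) and a median of 2.90 (0.025 over all tested genes) describe the set and are no measure of its typical change. With members of few DMSO counts set at their ratio or bound, the median over all 45 was 2.91. In 42 of the 45 every 24 h library lay above every DMSO library, where 24% of all tested genes lay above and 22.6% below. The 3 tested members not called were BST2, IFI35 and TRIM22. With any 1 of the 6 libraries left out, 32 of the 39 calls held each time, and the calls of DTX3L, IFITM2, LGALS3BP, RTP4, SAMD9, SP110 and USP18 were lost at least once, all 7 of them without 24 h replicate 1 (edgeR adjusted p from 0.0507 to 0.0926). RTP4 was also not called by DESeq2 (adjusted p = 0.0743). In bulk RNA, a rise in every cell and a larger rise in a part of the cells cannot be told apart.

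Among the IFIT proteins, IFIT1 binds viral RNA that lacks host cap marks and keeps it from being translated. All 4 members of the family rose at 24 h, where 15.3% of all tested genes were called higher. That share also applies to the counts by role below. All 4 passed the filter only through ironomycin libraries, so a rise was built into their being tested. IFIT3 stood at 1.46, 0.417 and 1.16 CPM in DMSO replicates 1 to 3, at 38.4, 7.64 and 12.4 at 6 h and at 61.6, 49.99 and 36.4 at 24 h. Its 6 h and DMSO libraries did not overlap, and replicate 1 at 6 h overlapped the 24 h libraries. IFIT2 stood at 0.209, 0.417 and 0.498 CPM in DMSO, at 18.8, 5.02 and 4.31 at 6 h and at 20.5, 17.9 and 15.9 at 24 h, with the same single high library at 6 h. The log2 fold change of IFIT3 was 4.21 ± 0.68 at 6 h (edgeR adjusted p = 0.000106) and 5.56 ± 0.64 at 24 h (7.3e-07). That of IFIT2 was 4.51 ± 0.72 at 6 h (edgeR adjusted p = 9.41e-05) and 5.47 ± 0.67 at 24 h (1.7e-06). Without 6 h replicate 1 both stayed called, at 3.27 for IFIT3 (edgeR adjusted p = 0.0008) and 3.52 for IFIT2 (0.000612). IFIT1, the founding cap sensor of the family, had 1 count over the DMSO libraries, 16 at 6 h and 202 at 24 h, a 24 h ratio of 209.5 with an exact 95% interval of 37.2 to 8314 that covers counting error only. IFIT5 had 3 counts in DMSO and 37 at 24 h, a ratio of 12.8 (interval 4.05 to 64.8).

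Among the enzymes that act on nucleic acids and nucleotides, 7 of 8 were tested and all 7 rose at 24 h. Of these, OAS1, OAS2, OASL, ISG20 and RSAD2 passed the filter only through ironomycin libraries, so their rise was built in. CMPK2 and SAMHD1 reached its level in DMSO libraries as well. OAS proteins sense double-stranded RNA and make the oligoadenylates that activate RNase L. OAS1 stood at 0.627, 0.209 and 0.995 CPM in DMSO, at 1.28, 0.437 and 1.31 at 6 h and at 29.4, 15.1 and 18.1 at 24 h. The 6 h and DMSO libraries overlapped, and the lowest 24 h library was far above both (24 h log2 fold change 4.97 ± 0.60, edgeR adjusted p = 1.4e-06). OAS2 went from a mean of 1.40 to 45.2 CPM (4.98 ± 0.60) and OASL, an OAS-like protein without that enzyme activity, from 0.612 to 4.73 CPM (2.97 ± 0.65). RSAD2 (viperin), which makes a chain-terminating nucleotide, and CMPK2, a mitochondrial nucleotide kinase encoded beside it, rose by 3.35 ± 0.48 and 3.11 ± 0.44. ISG20, an exonuclease, rose by 4.54 ± 0.86. SAMHD1, which breaks down deoxynucleotides, began high: it stood at 131.8, 96.0 and 107.7 CPM in DMSO, at 107.6, 112.8 and 100.3 at 6 h and at 198, 177 and 155 at 24 h (0.66 ± 0.15, edgeR adjusted p = 0.0018). OAS3 had 1 count in DMSO, 0 at 6 h and 9 at 24 h.

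The MX proteins are dynamin-like GTPases that block incoming viral nucleocapsids. MX2 stood at 4.80, 10.6 and 4.98 CPM in DMSO, at 5.55, 8.51 and 8.44 at 6 h and at 72.7, 29.0 and 41.8 at 24 h. Only the 24 h libraries left the DMSO range (log2 fold change 2.82 ± 0.46, edgeR adjusted p = 5.5e-05). MX1 stayed near the limit of counting in every group, where DMSO gave 3 counts, 6 h gave 9 and 24 h gave 13. Its 24 h ratio of 4.49 had an interval of 1.24 to 24.6.

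ISG15 is a ubiquitin-like protein that is joined to other proteins through UBE2L6 and HERC5 and taken off by USP18, which also damps receptor signalling, and these 4 genes rose at 24 h. Of the 4, USP18 passed the filter only through ironomycin libraries. HERC5, the ligase, stood at 1.88, 2.50 and 2.65 CPM in DMSO, at 7.90, 2.40 and 5.81 at 6 h and at 46.4, 26.4 and 22.7 at 24 h (24 h log2 fold change 3.74 ± 0.48, edgeR adjusted p = 2.9e-06). At 6 h, 2 of its 3 libraries lay above the DMSO libraries and replicate 2 lay below 2 of them. ISG15 went from 9.87 to 75.4 CPM in the mean (2.92 ± 0.42), UBE2L6 from 5.64 to 14.4 (1.35 ± 0.29) and USP18 from 1.81 to 7.25 (1.99 ± 0.51). HERC6 had 2 counts in DMSO, 7 at 6 h and 16 at 24 h.

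Of 8 membrane and mitochondrial proteins, 7 rose at 24 h, and IFI27 among them passed the filter only through ironomycin libraries. IFI6, a small membrane protein of the mitochondria and endoplasmic reticulum, stood at 23.2, 19.2 and 25.7 CPM in DMSO, at 16.4, 27.3 and 23.3 at 6 h and at 463, 192 and 214 at 24 h. Its 6 h libraries lay around those of DMSO, and its 24 h log2 fold change was 3.67 ± 0.42 (edgeR adjusted p = 6e-07). IFI27, a related protein, had 0 counts in the 3 DMSO libraries, stood at 0.214, 0.218 and 0.188 CPM at 6 h and at 44.4, 10.9 and 13.8 CPM at 24 h, at least 118-fold higher than a floor of 3 counts over the DMSO group. The IFITM proteins hinder the fusion of viruses with cell membranes. IFITM2 stood at 723, 751 and 678 CPM in DMSO, at 619, 1144 and 689 at 6 h and at 988, 1036 and 934 at 24 h (0.46 ± 0.16, edgeR adjusted p = 0.029), and its call was lost without any 1 of the 6 libraries. IFITM1 rose by 2.29 ± 0.41 and IFITM3 by 1.69 ± 0.39, and since the IFITM genes are close copies, reads could have been split between them. PLSCR1, a phospholipid scramblase, went from 15.5 to 43.9 CPM (1.49 ± 0.24), and RTP4, a receptor transporter, from 4.49 to 7.42 CPM (0.72 ± 0.27, edgeR adjusted p = 0.042), a call also lost without any 1 of the 6 libraries. BST2 (tetherin), which holds budding virions on the cell, stood at 118, 79.7 and 84.6 CPM in DMSO and at 204, 101 and 123 at 24 h (0.60 ± 0.25, edgeR adjusted p = 0.077). The lowest 24 h library of BST2 lay within the DMSO range. BST2 was called higher at 24 h when only DMSO and 24 h libraries were fitted (edgeR adjusted p = 0.0402), with the replicate block (0.0031), without the low-count filter (0.000602) and without 24 h replicate 2 (0.0352). At 6 h all its libraries lay below all of DMSO (means of 69.1 and 94.0 CPM), a difference not called in the main fit. It was called lower at 6 h with the replicate block (-0.43, edgeR adjusted p = 0.0319) and without the low-count filter (-0.46, 0.0168).

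PARP9 and DTX3L form an ADP-ribosylating ubiquitin ligase, PARP14 is a mono-ADP-ribosyltransferase, and all 3 rose at 24 h from levels already present in DMSO. PARP14 stood at 60.8, 64.1 and 53.4 CPM in DMSO, at 60.8, 77.7 and 67.3 at 6 h and at 170.3, 107.7 and 99.1 at 24 h (24 h log2 fold change 1.08 ± 0.24, edgeR adjusted p = 0.0012). Its 6 h libraries overlapped DMSO and its 24 h libraries did not. PARP9 rose by 1.56 ± 0.34 and DTX3L by 0.64 ± 0.18.

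All 5 helicases and SAMD9-family members rose at 24 h. HELZ2, a helicase and transcriptional coactivator, stood at 19.6, 15.4 and 19.1 CPM in DMSO, at 22.6, 26.0 and 22.1 at 6 h and at 79.9, 61.7 and 62.2 at 24 h (24 h log2 fold change 1.91 ± 0.18, edgeR adjusted p = 6.2e-08). Its 3 groups did not overlap, although its 6 h change of 0.38 ± 0.19 was not called (edgeR adjusted p = 0.16). DDX60, a helicase that assists RNA sensing, went from 0.819 to 30.4 CPM in the mean (5.15 ± 0.64), and its neighbouring paralog DDX60L from 10.7 to 27.1 CPM (1.34 ± 0.27). SAMD9L went from 1.03 to 24.3 CPM (4.53 ± 0.59), and SAMD9, its paralog, from 25.2 to 46.4 CPM (0.88 ± 0.25). In both paralog pairs the gene that was low in DMSO had the larger fold change. Those genes, DDX60 and SAMD9L, passed the filter only through ironomycin libraries, so a rise was built into their being tested. The order within the pairs is therefore no result about them.

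Among 4 nuclear and adaptor proteins, XAF1 and SP110 rose at 24 h. XAF1, which opposes the caspase inhibitor XIAP, stood at 58.7, 59.9 and 68.8 CPM in DMSO, at 248, 257 and 251 at 6 h and at 581, 404 and 390 at 24 h. The 6 h libraries were close together, and the 3 groups did not overlap. Its log2 fold change was 2.01 ± 0.18 at 6 h (edgeR adjusted p = 7.73e-08) and 2.87 ± 0.19 at 24 h (5.2e-10). SP110, a nuclear body protein, went from 38.6 to 68.9 CPM (0.83 ± 0.23). IFI35 went from 4.26 to 7.47 CPM (0.79 ± 0.31, edgeR adjusted p = 0.058). TRIM22, an antiviral ubiquitin ligase, stood at 13.0, 12.3 and 15.1 CPM in DMSO, at 9.82, 3.71 and 9.75 at 6 h and at 21.2, 13.5 and 16.5 at 24 h. All its 6 h libraries lay below all of DMSO (-0.79 ± 0.31, edgeR adjusted p = 0.076), and the 24 h libraries overlapped DMSO (0.34 ± 0.29, edgeR adjusted p = 0.41).

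SIGLEC1 (CD169), a sialic acid receptor of macrophages that monocytes acquire under interferon, had 0 counts in DMSO, stood at 0.214, 0.218 and 0 CPM at 6 h and at 24.0, 3.37 and 5.64 CPM at 24 h, at least 56.3-fold above the floor. LGALS3BP, a secreted glycoprotein, went from 2.88 to 9.87 CPM (1.80 ± 0.52, edgeR adjusted p = 0.010). Of the less characterised members, IFI44L had 0 counts in DMSO, 1 count at 6 h and 48.5, 11.1 and 22.0 CPM at 24 h, at least 140.0-fold above the floor. IFI44, its neighbour, went from 0.235 to 6.99 CPM in the mean (4.64 ± 0.91). EPSTI1 had 1 count in DMSO and 181 at 24 h, a ratio of 188 (interval 33.3 to 7453). KLHDC7B, a kelch-domain protein, had 0 counts in DMSO and stood at 3.63, 6.98 and 3.19 CPM at 6 h and at 14.0, 12.7 and 10.7 CPM at 24 h. All its 6 h libraries lay above DMSO and below 24 h, at least 23.5-fold above the floor at 6 h and 64.6-fold at 24 h (edgeR adjusted p = 3.56e-06 and 2.6e-08). SIGLEC1, IFI44L, IFI44, EPSTI1 and KLHDC7B passed the filter only through ironomycin libraries, so a rise was built into their being tested.

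**Figure D2:**
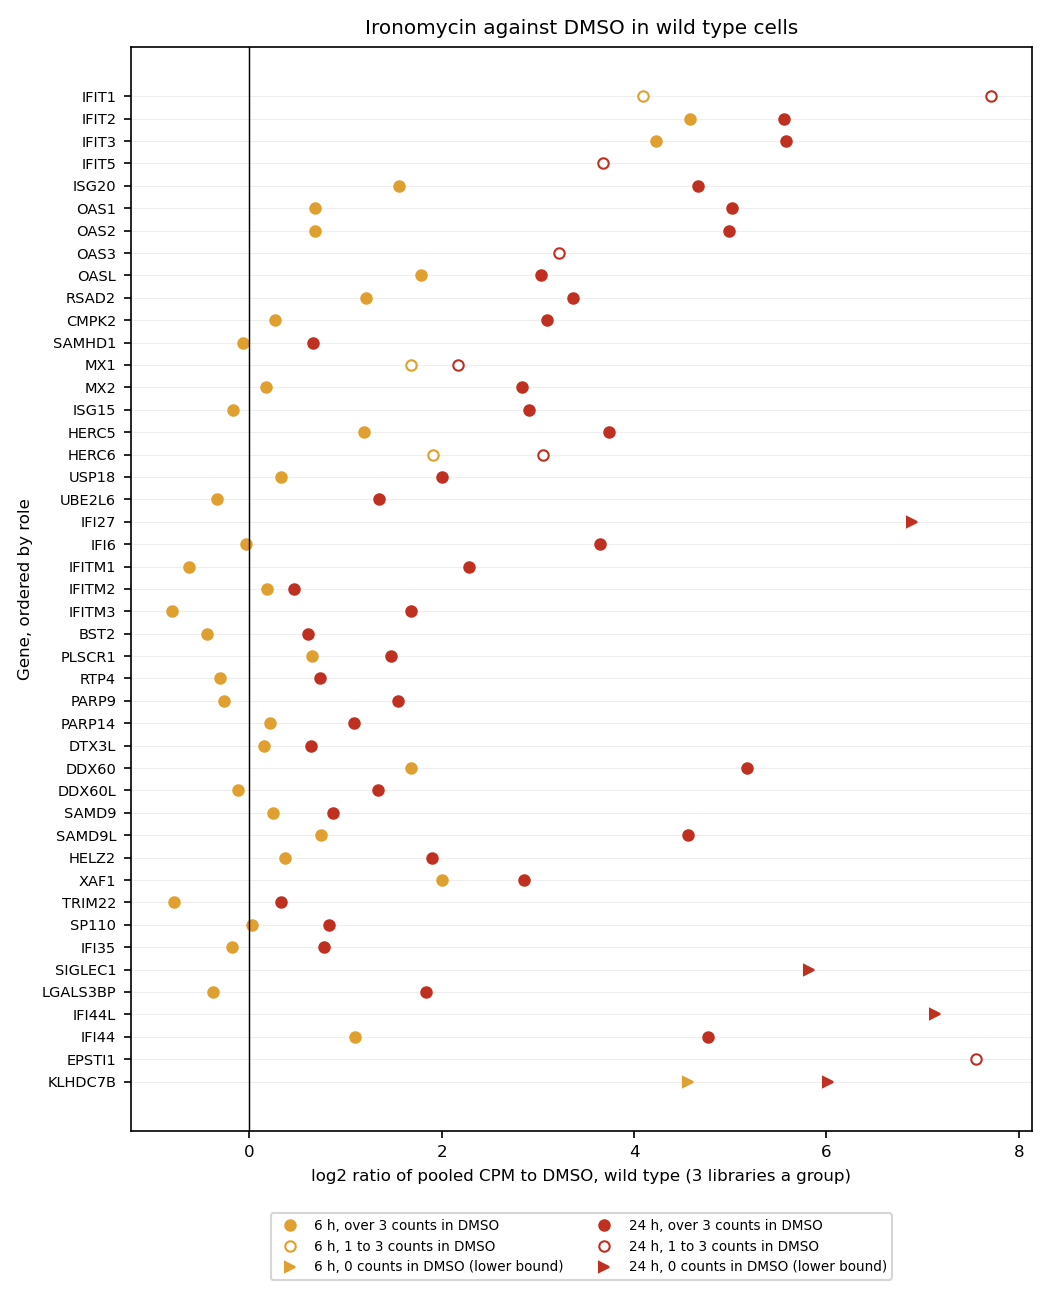
The log2 ratio of pooled CPM at 6 h (orange) and 24 h (red) to DMSO in wild type cells for each member, with open circles where DMSO had 1 to 3 counts and triangles for lower bounds where it had 0. At 24 h every point lies above 0, from 0.32 for TRIM22 to 7.71 for IFIT1, while most 6 h points lie near 0 apart from IFIT1, IFIT2, IFIT3, KLHDC7B, XAF1 and some members of few counts.

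The onset was uneven. At 6 h, 4 of the 42 tested members were called higher (IFIT2, IFIT3, KLHDC7B and XAF1) and 0 lower, a share below the 10.9% of all tested genes called higher and the 11.1% called lower. At an unadjusted p under 0.05 there were 10 members, 9 higher and 1 lower (edgeR), where 17.5% of all tested genes were higher and 17% lower. XAF1 was the only call among the 24 members that reached the filter level in at least 3 DMSO libraries. The median log2 fold change of those 24 was -0.05. Over all 42 tested members it was 0.26, against 0.016 over all tested genes, and over the 39 members with more than 3 counts in either group it was 0.27. All 4 calls held without each of the 6 libraries in turn, the deviating replicate 2 included, without which 5 members were called. IFIT1 (16 counts at 6 h against 1 in DMSO, a ratio of 17.1 with an exact 95% interval of 2.66 to 717, edgeR adjusted p = 0.057) and PLSCR1 (0.66 ± 0.25, edgeR adjusted p = 0.061) were not called here and were called by DESeq2 (adjusted p = 0.0155 and 0.0490).

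Expressed as the share of the 24 h rise in mean CPM that was present at 6 h, the median over the 39 members called at 24 h was 3.0%. It was under 10% in 26 of them, 10 of which had a 6 h mean below that of DMSO, between 10% and 25% in 6, and at least 25% in 7. Those 7 were IFIT2 (50.7%), XAF1 (47.9%), IFIT3 (38.2%), IFITM2 (37.2%), KLHDC7B (36.9%), OASL (34.0%) and PLSCR1 (32.1%). Only XAF1 and KLHDC7B stayed at or above 25% with each of the 9 wild type libraries left out, at 44.1% to 56.7% and 27.4% to 42.6%. Without 6 h replicate 1 the share was 24.2% for IFIT2, 18.6% for IFIT3 and 19.6% for OASL, that of PLSCR1 was also under 25%, and that of IFITM2 was 74.2%. For IFITM2, 6 h replicate 2 was the only 6 h library above the highest DMSO library, and without it the share was -23.7%. The median over the 39 members was 2.19% to 5.51% in these cases, highest without DMSO replicate 3. IFI6 (-0.142%) and ISG15 (-1.53%) showed no rise by 6 h, and IFI44L (0.262%), EPSTI1 (0.145%), IFI27 (0.896%) and SIGLEC1 (1.31%) had at most 3 counts over the 6 h group. Of the members called at 6 h, KLHDC7B and XAF1 had no response element match in their windows, and each window of IFIT3 had 2. Members at or near the DMSO level at 6 h also had such repeats, as the stretches of IFI6, IFI27 and ISG15 above show.

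**Figure D3:**
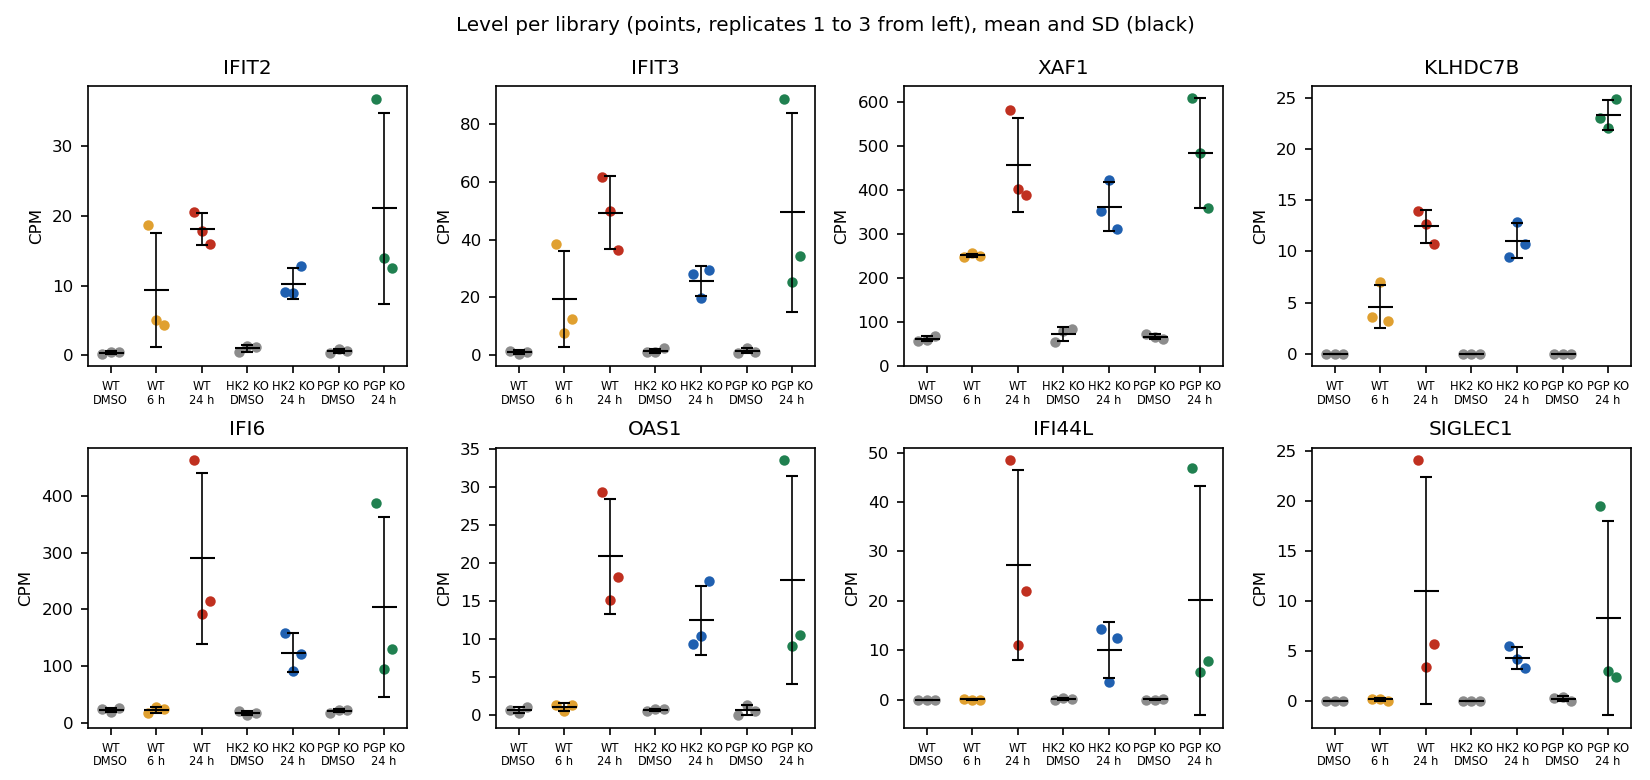
CPM in each library (points, replicates 1 to 3 from left) with the mean and SD (black) for 8 members in the 7 groups, on linear axes that differ between panels. The top row holds the 4 members called at 6 h, and the bottom row 4 members whose 6 h libraries lay at or near the DMSO level, with replicate 1 highest at 24 h in wild type and the PGP knockout.

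Between 6 h and 24 h, 21 of the 24 members that reached the filter level in DMSO rose and 0 fell (edgeR quasi-likelihood test), where 8.22% of the genes that met the same condition were called higher and 8.51% lower, and their median difference was 1.29 on the log2 scale, against 0.007 over those genes. The 21 include BST2, IFI35 and TRIM22, which were not called at 24 h against DMSO. For BST2 and TRIM22 every 6 h library lay below every DMSO library, so part of their rise was a return from below the DMSO level. Mean CPM in DMSO, at 6 h and at 24 h was 94.0, 69.1 and 142.6 for BST2 and 13.5, 7.76 and 17.1 for TRIM22. Over all 42 tested members 37 rose and 0 fell (8.48% and 8.08% of all tested genes), with a median of 1.98, or 1.69 over all 45 with ratios and bounds. The 5 not called were IFIT2 (0.96 ± 0.42, edgeR adjusted p = 0.12), OASL (1.23 ± 0.54, 0.122), DTX3L (0.49 ± 0.18, 0.0648), SAMD9 (0.63 ± 0.25, 0.0849) and IFITM2 (0.27 ± 0.16, 0.251). With 1 of the 6 libraries left out, the count was 29 to 35, lowest without 24 h replicate 1, and without 6 h replicate 2 it was 35. IFIT3 lost its call in several such fits, by DESeq2 (adjusted p = 0.109) and when only the 6 h and 24 h libraries were fitted (edgeR adjusted p = 0.127).

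In both knockouts most of these genes also rose at 24 h. In the HK2 knockout 17 of the 24 members that reached the filter level in DMSO were called higher and 0 lower (edgeR quasi-likelihood test), where 15.1% of the genes that met the same condition were called higher and 14.5% lower. In the PGP knockout 21 of these 24 were called higher and 0 lower, where 15.1% were called higher and 16.6% lower. The median log2 fold change of the 24 was 1.26 in the HK2 knockout (0.010 over those genes) and 1.51 in the PGP knockout (0.008). Over all 42 tested members, the 18 that passed only through ironomycin libraries included, 35 were called higher in the HK2 knockout (15.9% of all tested genes higher, 13.5% lower) and 39 in the PGP knockout (16.1% and 15.4%), with medians of 2.27 and 2.71, or 2.27 and 2.45 over all 45 with ratios and bounds. The 7 not called in the HK2 knockout were BST2, IFI35, IFITM2, LGALS3BP, SAMD9, SP110 and TRIM22, and the 3 not called in the PGP knockout were BST2, IFI35 and IFITM2. Same-numbered PGP knockout libraries of the DMSO and 24 h groups deviated together, and in the fit with the replicate block BST2 was called there as well (0.45, edgeR adjusted p = 0.0206). Leaving out 1 library gave 28 to 32 calls in the HK2 knockout, lowest without its DMSO replicate 2, and 32 to 40 in the PGP knockout, lowest without its 24 h replicate 1.

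The members with full values in wild type show how the knockouts ran. In the HK2 knockout IFI6 stood at 19.7, 13.1 and 17.5 CPM in DMSO and at 159, 90.3 and 122 at 24 h. In the PGP knockout it stood at 17.4, 21.9 and 22.4 CPM in DMSO and at 387, 94.6 and 131 at 24 h. Every 24 h library of IFI6 lay above every DMSO library in both, with log2 fold changes of 2.89 ± 0.42 and 3.31 ± 0.42 (edgeR adjusted p = 1.8e-05 and 2.9e-06). IFIT3 stood at 1.12, 1.02 and 2.31 CPM in DMSO and at 28.0, 19.6 and 29.3 at 24 h in the HK2 knockout, and at 0.803, 2.34 and 1.10 and then 88.8, 25.1 and 34.3 in the PGP knockout. IFIT2 stood at 0.447, 1.36 and 1.15 CPM in DMSO and at 9.02, 8.95 and 12.9 at 24 h in the HK2 knockout, and at 0.268, 0.850 and 0.658 and then 36.9, 14.0 and 12.5 in the PGP knockout. For both IFIT genes the 24 h libraries of either knockout lay clear of its DMSO libraries, by 4.09 ± 0.62 and 5.06 ± 0.62 for IFIT3 and by 3.30 ± 0.59 and 5.05 ± 0.64 for IFIT2.

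OAS1 stood at 0.447, 0.679 and 0.769 CPM in DMSO and 9.26, 10.4 and 17.6 at 24 h in the HK2 knockout, and at 0, 1.28 and 0.439 and then 33.5, 9.07 and 10.5 in the PGP knockout. MX2 stood at 4.47, 6.28 and 5.00 CPM in DMSO and 30.9, 22.7 and 22.8 at 24 h in the HK2 knockout, and at 9.90, 6.59 and 9.22 and then 91.3, 19.8 and 26.5 in the PGP knockout. Neither gene overlapped between DMSO and 24 h in either knockout. HERC5 stood at 1.56, 1.02 and 1.35 CPM in DMSO and 15.9, 10.4 and 17.6 at 24 h in the HK2 knockout, and at 1.34, 1.70 and 2.85 and then 52.4, 14.9 and 16.2 in the PGP knockout. HELZ2 stood at 17.6, 16.8 and 16.0 CPM in DMSO and 62.4, 55.1 and 56.4 at 24 h in the HK2 knockout, and at 19.3, 19.3 and 15.8 and then 93.8, 54.4 and 53.8 in the PGP knockout. In the PGP knockout replicate 1 was the high 24 h library for each of these genes. XAF1 stood at 56.3, 80.3 and 85.5 CPM in DMSO and 353, 422 and 313 at 24 h in the HK2 knockout, and at 72.8, 67.8 and 63.2 and then 609, 484 and 359.9 in the PGP knockout. PARP14 stood at 60.1, 70.1 and 56.1 CPM in DMSO and 99.2, 109.4 and 80.1 at 24 h in the HK2 knockout (0.63 ± 0.24, edgeR adjusted p = 0.0486), a call lost in 5 of the 6 fits with 1 library left out, and at 62.3, 64.2 and 52.01 and then 198, 102 and 83.0 in the PGP knockout.

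The members with few or no DMSO counts in wild type had few in the knockouts too. KLHDC7B had 0 counts in DMSO in both knockouts and stood at 9.50, 12.9 and 10.7 CPM at 24 h in the HK2 knockout and at 23.0, 22.1 and 24.9 in the PGP knockout, at least 57.6-fold and 101.6-fold above the floor. SIGLEC1 had 0 counts in DMSO in the HK2 knockout and stood at 5.46, 4.16 and 3.26 CPM at 24 h (at least 21.9-fold above the floor), and in the PGP knockout it went from 3 counts to 19.5, 3.02 and 2.34 CPM (ratio 35.99, interval 12.02 to 177). IFI44L went from 3 counts to 14.2, 3.54 and 12.5 CPM in the HK2 knockout (ratio 51.8, interval 17.4 to 254) and from 1 count to 46.9, 5.58 and 7.79 CPM in the PGP knockout. IFI27 stood at 0.223, 0.509 and 0.385 CPM in DMSO and 14.96, 9.36 and 11.5 at 24 h in the HK2 knockout, and at 0, 1.06 and 0.878 and then 28.1, 4.42 and 7.40 in the PGP knockout. The strongly expressed pair moved little. IFITM2 stood at 669, 666 and 682 CPM in DMSO and 896, 861 and 838 at 24 h in the HK2 knockout (0.36 ± 0.16, edgeR adjusted p = 0.085), where the groups did not overlap, and at 592, 782 and 807 and then 881, 786 and 892 in the PGP knockout, where they did (0.23 ± 0.16, 0.28). SAMHD1 stood at 151, 117 and 105 CPM in DMSO and 191, 149.8 and 169.9 at 24 h in the HK2 knockout, and at 123, 119 and 113 and then 199, 147 and 139.5 in the PGP knockout. Both SAMHD1 changes were called (0.46 ± 0.15 and 0.45 ± 0.15, edgeR adjusted p = 0.026 and 0.027), and each call was lost in several fits with 1 library left out.

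In DMSO the knockouts did not differ from wild type in any tested member by the test. For the HK2 knockout 0 of 42 members were called (edgeR; 0 by DESeq2), 1 had an unadjusted p under 0.05 (5.22% of all tested genes had), and 0.00861% of all tested genes were called. That member was RTP4, at 2.46, 1.70 and 2.50 CPM against 3.97, 5.01 and 4.48 in wild type (-1.02 ± 0.31, edgeR adjusted p = 0.482). For the PGP knockout 0 of 42 were called (edgeR; 0 by DESeq2), 0 had an unadjusted p under 0.05 (5.58% of all tested genes had), and 0% of all tested genes were called. All 3 HK2 knockout libraries lay above all 3 of wild type for 1 member (IFI27, 6 counts against 0) and below for 2 (HERC5 and RTP4). Of the 11610 tested genes 694 lay above and 908 below. In the PGP knockout 0 members lay above and 3 below (DDX60L, SAMD9 and SP110), where 746 and 776 tested genes did. With so few DMSO counts in many members, sizeable differences would not have been detectable at this depth: OASL had 3 counts in the HK2 knockout against 9 in wild type, a ratio of 0.334 with an exact 95% interval of 0.0582 to 1.34.

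At 24 h the HK2 knockout had lower levels than wild type for every tested member, without any of these differences passing the test. The sign was negative for 42 of 42 tested members, where it was negative for 5735 of the 11610 tested genes. The median was -0.67 on the log2 scale against 0.003 over all tested genes, and -0.69 over all 45 with ratios. The 42 include the 18 members that passed the filter only through ironomycin libraries. Over the 24 members that reached the filter level in DMSO the median was -0.44, and all 24 signs were negative. In 18 of the 45 members all 3 HK2 knockout libraries lay under all 3 of wild type and in 0 they lay above, where 5.68% of all tested genes lay under and 5.7% above. These 18 were IFI6, IFIT1, IFIT2, IFIT3, IFIT5, ISG15, MX1, OAS2, RSAD2, DDX60, DDX60L, HERC5, IFITM2, SAMD9L, LGALS3BP, SP110, UBE2L6 and RTP4. For HERC5 and RTP4 the HK2 knockout libraries also lay under all of wild type in DMSO. By the test, 0 of 42 were called (edgeR quasi-likelihood test; 0 by DESeq2), and 0.0689% of all tested genes were called. At an unadjusted p under 0.05, 14 of the 42 were lower and 0 higher, where 2.65% of all tested genes were lower and 2.84% higher. The smallest p belonged to IFI6, at 159, 90.3 and 122 CPM against 463, 192 and 214 in wild type (-1.23 ± 0.36, edgeR adjusted p = 0.407). DDX60 stood at 15.9, 9.36 and 9.59 CPM against 48.9, 18.3 and 23.9 (-1.39 ± 0.45, edgeR adjusted p = 0.548). In the fit without the low-count filter 12 members were called, all lower. The share of all genes called in that fit is not given here, so this count is no result about the members.

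The size of this difference rests in part on wild type replicate 1. Without that library the median was -0.32, 38 of 42 signs were negative and 0 members were called (edgeR), and with replicate 1 of all 24 h groups left out together it was -0.32 with 38 negative signs. Leaving out any other of the 6 libraries gave medians from -0.83 to -0.61. The members of one library share their source, so a common sign over members is not a count of independent observations.

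The difference in response, which sets the change from DMSO to 24 h in the HK2 knockout against that in wild type, was called for 0 of 42 members (edgeR; 0 by DESeq2), as for 0% of all tested genes. Its median was -0.43, against 0.013 over all tested genes, and without wild type 24 h replicate 1 it was -0.19. The sign was negative for 39 of the 42 members and for 5543 of the 11610 tested genes. The only member with an unadjusted p under 0.05 was XAF1 (-0.58 ± 0.25, interval -1.11 to -0.06, edgeR adjusted p = 1.0). For IFIT2 the interval ran from -4.47 to 0.14 and for ISG15 from -2.27 to 0.18, so neither a smaller response nor an equal one was shown.

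When the PGP knockout was set against wild type at 24 h, members differed in sign, and the balance of signs changed with single libraries. The sign was negative for 26 and positive for 16 of the 42 tested members, where it was negative for 5775 of the 11610 tested genes. The median was -0.07 against 0.001 over all tested genes. In 2 of the 45 members (MX1 and IFITM2) all its libraries lay under all of wild type and in 1 (KLHDC7B) they lay above, where 4.29% of all tested genes lay under and 5.23% above. By the test, 0 of 42 were called (edgeR; 0 by DESeq2), and 0.0517% of all tested genes were called. At an unadjusted p under 0.05, 1 member was higher and 1 lower, where 2.35% of all tested genes were higher and 1.71% lower. KLHDC7B stood at 23.0, 22.1 and 24.9 CPM against 14.0, 12.7 and 10.7 in wild type (0.91 ± 0.24, interval 0.41 to 1.41, edgeR adjusted p = 0.507). IFITM1 stood at 10.5, 3.25 and 6.04 CPM against 15.6, 7.14 and 12.8 (-0.84 ± 0.36, edgeR adjusted p = 0.999). The median was -0.73 without PGP knockout replicate 1, with 41 of 42 signs negative, but 0.17, 0.11 and 0.25 without PGP knockout replicate 2, PGP knockout replicate 3 and wild type replicate 1. With replicate 1 of all 24 h groups left out together it was -0.45 with 38 negative signs, against -0.32 for the HK2 knockout in the same setting. The difference in response was called for 0 of 42 (edgeR; 0 by DESeq2) and for 0% of all tested genes, with a median of -0.08 and 1 member, IFI27, at an unadjusted p under 0.05. Its median was -0.53 without PGP knockout 24 h replicate 1 (37 negative signs) and 0.22 without wild type 24 h replicate 1 (12 negative signs), and -0.31 with replicate 1 of all 24 h groups left out. Both knockouts were set against the same wild type libraries.

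**Figure D4:**
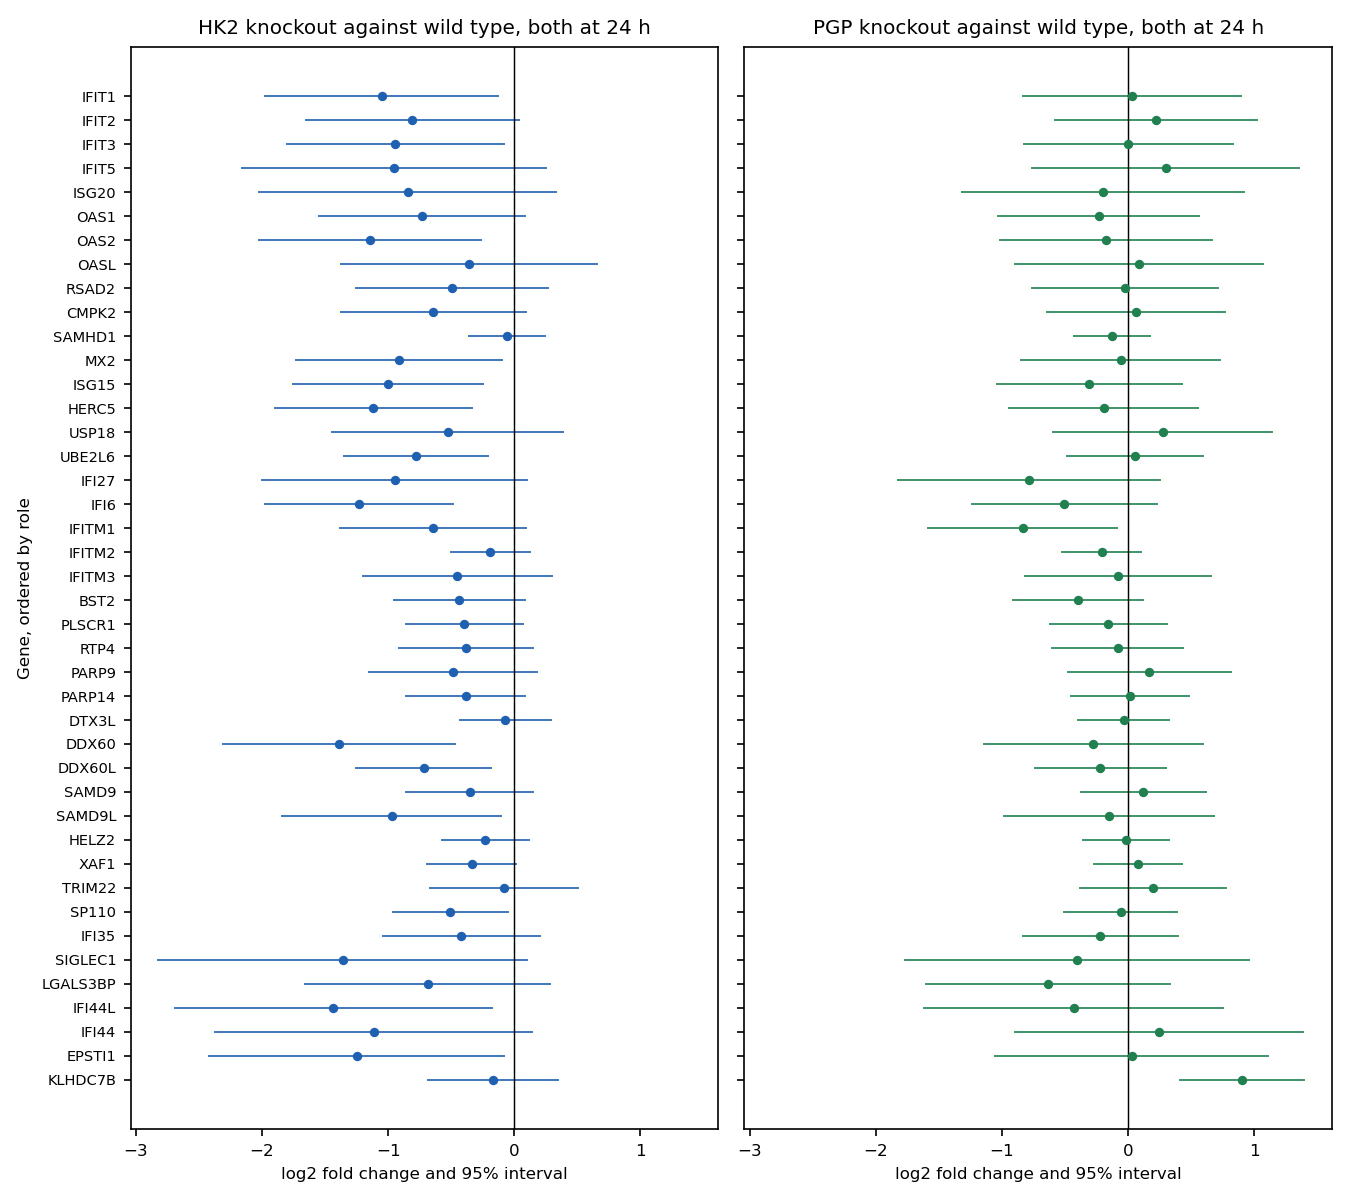
The log2 difference between each knockout and wild type, both after 24 h of ironomycin, for the 42 tested members (points) with 95% intervals from the edgeR fit (lines). All points of the HK2 knockout (left) lie below 0, with intervals that cross 0 for most, and those of the PGP knockout (right) lie on both sides.

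The spread between 24 h libraries was itself shared by the members. In wild type 41 of the 45 members were highest in replicate 1, where 36.6% of all tested genes were, and in the PGP knockout 42 of 45 were, where 33.2% of all tested genes were. In the HK2 knockout replicate 1 was highest for 18 of 45, where 31.7% of all tested genes were. The ratio of replicate 1 to the mean of replicates 2 and 3 had a median of 1.54 in wild type (range 0.838 to 5.34, with 14 members at 2-fold or more). In the PGP knockout this ratio had a median of 2.72 (0.98 to 7.27, with 31 members at 2-fold or more), and in the HK2 knockout of 1.07 (0.294 to 1.78, with 0). In DMSO and at 6 h no replicate was highest for more than 21 of the 45. For the members the median deviation of replicate 1 from its group mean was 0.415 in wild type and 1.01 in the PGP knockout on the log2 scale, against 0.005 and -0.001 over all tested genes. With replicate 1 of all 24 h groups left out together, 36 members were called higher in wild type, 36 in the HK2 knockout and 32 in the PGP knockout, with medians of 2.52, 2.19 and 1.92. Over all genes of that fit the medians were 0.010, 0.029 and 0.006. The shares of all genes called in that fit are not given, so these counts describe the members alone. What the replicate numbers mark is not given in the sources used here.

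**Figure D5:**
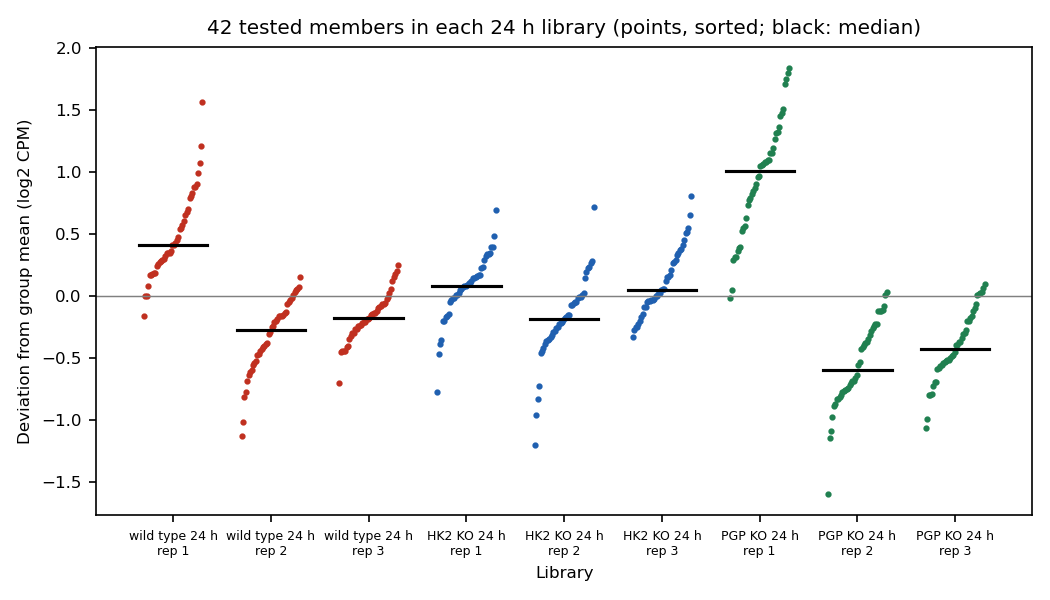
Deviation of each tested member from its group mean, in log2 CPM, in the 9 libraries taken at 24 h (points sorted within a library, black line at the median). Replicate 1 lies above 0 for nearly all members in wild type and the PGP knockout, and around 0 in the HK2 knockout.

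Part of the genes upstream of the effectors also rose. Of 18 listed genes of interferon receptors and signalling, 17 were tested, and 7 rose and 0 fell at 6 h, 10 rose and 0 fell at 24 h in wild type, 8 rose in the HK2 knockout and 11 in the PGP knockout. Over all tested genes the shares called higher were 10.9%, 15.3%, 15.9% and 16.1% in these comparisons. STAT2, a subunit of the complex that binds the response element, went from a mean of 13.4 CPM in DMSO to 41.1 at 6 h and 64.1 at 24 h (1.61 ± 0.17 and 2.25 ± 0.16, edgeR adjusted p = 3.91e-07 and 1.27e-09). IRF9, the DNA-binding partner, went from 1.61 to 4.62 and 7.98 CPM (1.51 ± 0.41 and 2.30 ± 0.39, edgeR adjusted p = 0.0107 and 9.25e-05). IRF7, which amplifies interferon production, rose by 0.82 ± 0.28 and 1.76 ± 0.27 at these times. From 6 h to 24 h 4 of the 17 rose and 0 fell, where 8.48% of all tested genes were called higher. In the HK2 knockout STAT2 rose by 2.11 ± 0.17 and in the PGP knockout by 2.15 ± 0.16.

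Of 21 listed nucleic acid sensors and adaptors, 15 were tested, and 6 rose and 1 fell at 6 h. At 24 h 8 rose and 0 fell in wild type, 8 rose and 1 fell in the HK2 knockout, and 9 rose and 1 fell in the PGP knockout, against the same shares of all tested genes called higher and 11.1%, 14.6%, 13.5% and 15.4% called lower. IRF9 of the signalling list and DHX58 and AIM2 of this one passed the filter only through ironomycin libraries. IFI16, a DNA sensor, went from 10.7 CPM in DMSO to 33.5 at 6 h and 66.7 at 24 h (1.65 ± 0.27 and 2.64 ± 0.26, edgeR adjusted p = 0.000112 and 9.96e-08). The RNA sensors IFIH1 (MDA5), RIGI and DHX58 rose at 24 h by 2.00 ± 0.31, 1.32 ± 0.30 and 2.89 ± 0.54, and of these DHX58 was also called at 6 h (2.12 ± 0.58, edgeR adjusted p = 0.011). STING1, the adaptor of the cytosolic DNA pathway, rose by 0.67 ± 0.14 at 6 h and 0.71 ± 0.14 at 24 h. The gene that fell at 6 h was MYD88, the Toll-like receptor adaptor (-0.93 ± 0.34, edgeR adjusted p = 0.0492), and in the knockouts MAVS, the adaptor of RNA sensing, fell at 24 h (-0.75 ± 0.17 and -0.57 ± 0.17). In the comparisons between genotypes 0 genes of either list were called (edgeR).

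Transcripts of the interferons themselves were close to absent from the counts. Of 21 listed interferon genes of types I, II and III, 19 had 0 counts in all 21 libraries, and the others, IFNG and IFNL1, had 5 counts in all. Of these, 1 fell in the wild type 24 h group (IFNG) and 4 in the PGP knockout at 24 h (3 of IFNG and 1 of IFNL1). No listed interferon had a count in any DMSO library, at 6 h or in the HK2 knockout. A count of 0 in a library allows up to 3 counts, 0.498 to 0.803 CPM, so low or brief expression was not detectable at this depth.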

How the data were processed

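Libraries were made with a QuantSeq 3′ kit from RNA prepared with RNeasy, per the labels' protocols. Reads were demultiplexed with bcl2fastq 2.20.0.422, aligned with HISAT2 and counted with HTSeq, with hg19 named as the build, per the submitters' processing notes. The deposited table holds counts of reads, whole and not normalized, for each Ensembl gene. The strand setting is not given in the sources used here, so overlapping or antisense genes and close copies (IFITM1 to IFITM3, DDX60 and DDX60L) are uncertain. Of 54042 genes, 51661 had a symbol in the reference table, and 2381 without one held 353970 counts in all.

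From these counts, CPM and tests came from edgeR 4.0.16 (under R 4.3.3, with limma 3.58.1), using TMM, filterByExpr on the groups (a minimum count of 10 and a minimum total of 15) and 1 quasi-likelihood fit of all 21 libraries (common biological coefficient of variation 0.149), two-sided, for 11 comparisons. A call is a Benjamini-Hochberg adjusted p under 0.05 over the 11610 genes tested, and errors are SE unless named. The standard error was derived from the fold change and its F statistic. Ratios of pooled counts stand for members with 3 or fewer counts in a group, with a floor of 3 counts over the group where it had 0 and exact 95% intervals, which cover counting error only. Values over the 24 members at the filter level in 3 or more DMSO libraries, and 6 h shares with each wild type library left out, were added after the data were seen. The fit was tested on simulated data, with changes planted only in genes above a low mean level and the spread drawn separately for each gene. It did not cover members of few DMSO counts or a shift that members share in a library. The values of 1 gene of the signalling list are not reported here. Promoter windows were taken from RefSeq (GRCh38.p14), and tables and figures were made with Python 3.11.15, pandas 2.3.3, numpy 2.4.6, scipy 1.17.1 and matplotlib 3.10.9.

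The members and lists were chosen with earlier results of these data known. Values in every library are given for the member of each role with the smallest adjusted p at 24 h, those called at 6 h, those with 0 counts in wild type DMSO and the 4 with the highest counts at 24 h; BST2, TRIM22, RTP4, DDX60 and IFITM1 were added after their values were seen. Alternatives were DESeq2 1.42.0, RLE normalization, all genes kept, the replicate block, a fit of the compared groups only and each library left out; leaving out replicate 1 of all 24 h groups was chosen after seeing the data. Same-numbered libraries of the PGP knockout deviated together between DMSO and 24 h (correlations of 0.243, 0.164 and 0.247 over genes, all above 0.1). That pairing comes from the data and not the labels. The values given for that comparison are from the fit without pairs. Only the alternative with the replicate block used the numbers. It called 40 members against 39, with a median log2 fold change of 2.56 against 2.71.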

Additional observations from a re-analysis of the deposited data

How the results depend on the processing

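The count of members called at 6 h was 4 and moved to 12 without the low-count filter (9 higher, 3 lower) and to 8 with the replicate block (7 higher, 1 lower). The 3 called lower without the filter were BST2, TRIM22 and IFITM3, and the 1 with the block was BST2. The same-numbered libraries were not shown to pair there. Without the filter, 12 members were called lower in the HK2 knockout against wild type at 24 h, and 1 member (IFI27) was called in the PGP knockout against wild type in DMSO and 1 (IFI27) in its difference in response, each against 0. IFI27 had 0 counts in wild type DMSO. The cause of these shifts was not tested, and the shares of all genes called in these alternative fits are not given beside them. With the replicate block the counts at 24 h were 40 in wild type, 36 in the HK2 knockout and 40 in the PGP knockout, and 39 from 6 h to 24 h. Calls of members with 1 library left out ranged from 4 to 5 at 6 h, 32 to 38 at 24 h in wild type, 29 to 35 from 6 h to 24 h, 28 to 32 in the HK2 knockout and 32 to 40 in the PGP knockout, and were 0 in each comparison between genotypes. Over the 42 tested members and 11 comparisons, the alternatives lost 107 calls and gained 58, of which 30 were gained without the low-count filter. The direction was followed in 2406 alternative values of 200 member results, those called, at an unadjusted p under 0.05, or not called at 24 h against DMSO or 6 h, with 3 others whose values are given. It turned in 1, TRIM22 in the HK2 knockout without its 24 h replicate 3 (-0.10, and up to 0.30 without its 24 h replicate 2). Depth limits the members with 3 or fewer counts in DMSO, for which ratios or bounds of pooled counts are given singly, although the medians over tested members include their fitted values.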
